A study of Danio rerio with 21 samples.

Results

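The unexposed telencephalon of adult zebrafish was measured in 9 of the 21 libraries of a study of chronic gamma irradiation: 3 control libraries of batch 1 (replicates 1 to 3) and 6 control libraries of batch 2 (replicates 1 to 6). The members are the libraries labelled as unexposed controls, grouped by the batch number in their labels. All 9 come from fish of the AB strain, 6 to 9 months old and unmodified, which were kept for 36 days in the same kind of recirculating system as the irradiated fish, with no source. The other 12 libraries were irradiated for the same time, at 0.5 or 5 mGy/h in batch 1 (3 libraries each) and at 0.05 mGy/h in batch 2 (6 libraries). Each library is a pool of 3 to 4 telencephalons, with the sexes balanced per condition, so the spread between libraries is a spread between pools and p-values measure that spread alone. The fish came from 2 suppliers, and which batch used which, or what else the batches did not share, is not given in the sources used here. Whatever differed between the batches therefore cannot be told apart from the batch itself.

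The telencephalon is the front part of the fish forebrain and holds the olfactory bulbs, a dorsal pallium rich in glutamatergic neurons, and a ventral subpallium that makes most of the GABAergic neurons. Its neural stem cells, radial glia that line the ventricle, go on making neurons in the adult. The preoptic area, with neurons that make oxytocin and vasopressin, and the habenula and pineal complex lie at its border, so a dissection can include more or less of them.

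Strand-specific counts of reads per gene were compared. Reads counted on genes ran from 48.1 to 61.1 M per library in batch 1 and from 23.8 to 40.5 M in batch 2 (M, counts in units of 1e6), with no overlap. Of 8 library measures, reads on genes, unmapped reads, multimapping reads, ambiguous reads, mitochondrially encoded reads and genes with more than 3 counts did not overlap between the batches. For each of these 6, the exact two-sided permutation test gave p = 0.0238, the smallest this design allows, and 0.032 after Benjamini-Hochberg adjustment over the 8. Unmapped reads were 4.06% ± 0.18 (SD, n = 3) in batch 1 and 5.88% ± 1.38 (SD, n = 6) in batch 2, and genes with more than 3 counts were 22428 ± 392 and 21321.5 ± 535. The last measure uses a fixed number of raw counts, so it depends on the reads on genes, which were fewer in batch 2. It does not show that fewer genes were expressed there. Batch 2 replicate 6 stood apart: 8.66% of its reads were unmapped against 5.02 to 5.73% in the other 5, and 17.3% fell outside genes against 23.5 to 25.1%. Across 17294 genes its log2 expression correlated with the other batch 2 controls at 0.762 to 0.785 and with batch 1 at 0.839 to 0.849, whereas batch 2 replicates 1 to 5 correlated with each other at 0.966 to 0.983 and with batch 1 at 0.876 to 0.897. These are correlations over genes, which are not independent replicates. Counts of genes called between the batches are therefore given with all 9 controls and with the 8 that leave this library out. Fold changes of some single genes are given for 1 of these sets only. Without replicate 6 the same 6 library measures did not overlap between the batches. Each gave p = 0.0357 in the exact permutation test, the smallest that 8 libraries allow, and 0.0476 after adjustment. Unmapped reads in batch 2 were then 5.32% ± 0.26 (SD).

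The baseline was broad and largely shared. In all 9 controls, 14388 genes reached at least 1 CPM (counts per 1e6 reads of the composition-adjusted library size), and 15392 did so in the 8 without batch 2 replicate 6. Across 17293 genes the mean log2 levels of the batches correlated at 0.942 (0.932 without that library), and 91 of the 100 genes with the highest CPM in one batch were among the 100 highest in the other. By mean CPM over the 9 controls, the 20 highest genes made up 12% of the composition-adjusted library size. MT-CO1, the mitochondrially encoded first subunit of cytochrome c oxidase, made up 3.03% of it. MT-CO1 stood at 25624, 27320 and 28393 CPM in batch 1, at 27307 to 31509 in batch 2 replicates 1 to 5 (median 29556) and at 43744 in replicate 6. The 8 libraries overlapped for this gene, and the last stood above them all.

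Telencephalic identity was present in both batches. The defining transcription factors of pallium and subpallium, a list of 49 tested genes, summed to 3962 to 4269 CPM in batch 1 and to 3009 to 3908 in batch 2 replicates 1 to 5, with 4901 in replicate 6. ZBTB18, a repressor of pallial excitatory neurons, was at 694, 766 and 669 CPM in batch 1, between 408 and 580 in batch 2 replicates 1 to 5 and at 594 in replicate 6. NR2F2, an orphan nuclear receptor of ventral forebrain interneurons, was at 448, 459 and 473 CPM, at 277 to 437 and at 487. Both were lower in each of batch 2 replicates 1 to 5 than in any batch 1 library, and neither reached a 1.5-fold change.

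Some neuronal genes were nearly level in all 9 libraries. GAD1 (ENSDARG00000027419), one of the enzymes that make GABA, was at 783, 788 and 785 CPM in batch 1 and at 725 to 866 in batch 2 replicates 1 to 5, with 668 in replicate 6. SYT1, the calcium sensor of fast transmitter release, was at 2180, 2401 and 2290 CPM, at 2065 to 2216 and at 2055. GRIN1, the shared subunit of NMDA receptors, was at 2141, 2334 and 2189 CPM, at 1877 to 2181 and at 1815. The ranges of the batches overlapped for these genes, apart from replicate 6, which was the lowest library of the 9 for each. Among genes of at least 50 CPM, those with the smallest relative spread over the 9 libraries were PAPOLA, a poly(A) polymerase (coefficient of variation 2.15%), the kinase FYN (2.51%), CPSF1 of the cleavage and polyadenylation complex (2.55%), RUNDC3A (2.68%) and the RNA-binding protein HNRNPK (3.05%). For 8615 of 20481 genes (42.1%) the 95% interval of the batch difference lay wholly within 1.5-fold in either direction in the 8 libraries, against 3545 of 20465 (17.3%) with all 9.

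The count of genes that differed between the batches turned on batch 2 replicate 6. With all 9 controls, edgeR's quasi-likelihood test called 568 of 20465 genes, 2.78% (a Benjamini-Hochberg adjusted p under 0.05 and at least 1.5-fold), 387 higher in batch 2 (1.89%) and 181 lower (0.884%). Without replicate 6 it called 3974 of 20481, 19.4%, 2731 higher (13.3%) and 1243 lower (6.07%). Nearly all calls of the first comparison were among those of the second: 566 genes were called in both, 99.6% of the 568 and 14.2% of the 3974. The median log2 fold change over all genes was 0.04 with 9 libraries and -0.01 with 8. Without regard to any test, 898 genes (4.39%) were higher in every batch 2 library than in any batch 1 library and 1706 (8.34%) lower with all 9, against 3730 (18.2%) and 3772 (18.4%) with 8. Of the genes called without replicate 6, 965 were at least 4-fold higher in batch 2 and 115 at least 4-fold lower.

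**Figure D1:**
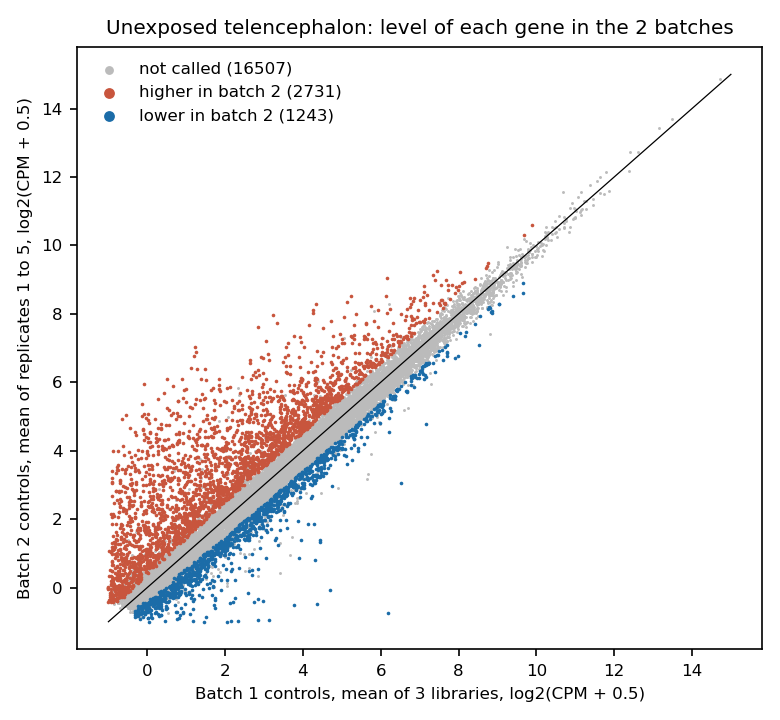
Mean expression of each gene in the batch 1 controls (x axis) and in batch 2 control replicates 1 to 5 (y axis), both as log2(CPM + 0.5), with colours for the genes called in the 8-library comparison. Of the 2731 genes higher in batch 2, 965 differed at least 4-fold, and of the 1243 lower ones 115 did. Single genes lie far from the diagonal on both sides.

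Where replicate 6 stood for these genes was not the same in the 2 directions. Of the 2731 genes higher in batch 2 replicates 1 to 5, it lay within or beyond the batch 1 side for 2119 (77.6%), between the batches for 286 and with batch 2 for 326 (11.9%). Of the 1243 lower genes it lay with batch 1 for 568 (45.7%) and with batch 2 for 520 (41.8%). Among the 115 genes at least 4-fold lower, 74 (64.3%) had it with batch 2 and 18 with batch 1.

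A small group of genes kept its call whichever library was left out. Leaving out any of the other 8 libraries in turn while keeping replicate 6 left 22, 49 and 50 calls without batch 1 replicates 1, 2 and 3 and 27, 38, 39, 34 and 42 without batch 2 replicates 1 to 5. Of the 568 genes, 495 were called in none of those 8 fits and 14 in every one. They include KAT8, arpc4l, ZNRD2, ATP6V1G1, adh5, PELI3, SYT6, ccl38a.4, ccl34b.4, vsig8a, zgc:154055 and the unnamed genes ENSDARG00000112088 and ENSDARG00000010729. Most of those described here were at or near the limit of detection in one of the batches.

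Higher in batch 2 were KAT8, NDUFA8, arpc4l and ZNRD2. KAT8, which acetylates histone H4, was at 0.249, 0.241 and 0.390 CPM in batch 1, at 10.1 to 12.5 in batch 2 replicates 1 to 5 and at 18.9 in replicate 6. Replicate 6 was the highest library, and the log2 fold change was 5.41 ± 0.34 (SE; adjusted p = 0.000299, edgeR). NDUFA8, a subunit of mitochondrial complex I, was at 0.233, 0.381 and 0.296 CPM, at 20.7 to 24.5 (median 23.8) and at 85.9, a log2 fold change of 6.77 ± 0.72 (SE; adjusted p = 0.00496, edgeR). For arpc4l, a subunit of the actin-branching Arp2/3 complex, the levels were 0.0311, 0.0201 and 0.187 CPM, 8.95 to 11.59, and 24.9. As for KAT8 and NDUFA8, replicate 6 held the highest level of arpc4l. ZNRD2, a zinc ribbon protein, was detected throughout, at 1.24, 2.21 and 1.51 CPM, at 8.66 to 11.2 and at 11.5, a log2 fold change of 2.63 ± 0.25 (SE; adjusted p = 0.00278, edgeR).

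The thymosin gene tmsb1, whose product binds actin monomers, showed the same direction with an exception inside batch 2. It was at 0.0467, 0.0201 and 0.0312 CPM in batch 1, at 5.89 to 8.46 in batch 2 replicates 1 to 4, at 0.0818 in replicate 5 and at 45.8 in replicate 6. Batch 2 thus held libraries near 0 and libraries well above it for this gene. The irradiated libraries of batch 1 were at 3.96, 14.5 and 10.7 CPM at 0.5 mGy/h and at 0.0214 to 0.0632 at 5 mGy/h, and those of batch 2 at 2.89 to 12.8. Libraries near 0 and well above it were thus found in both batches, and tmsb1 was not called among the irradiated libraries (log2 fold change 0.81, edgeR adjusted p = 0.6).

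Lower in batch 2 were ATP6V1G1, adh5, PELI3 and a set of genes close to 0 there. ATP6V1G1, a subunit of the proton pump that acidifies vesicles, was at 93.1, 92.1 and 30.7 CPM in batch 1 and at 0.0293 to 0.253 in the 6 batch 2 libraries, replicate 6 being at 0.155. Its log2 fold change was -9.40 ± 0.55 (SE; adjusted p = 0.000208, edgeR), with batch 1 replicate 3 below the other batch 1 libraries and still far above batch 2. adh5, a glutathione-dependent formaldehyde dehydrogenase, was at 8.32, 7.04 and 9.28 CPM in batch 1, and in batch 2 it had reads in replicates 1 (0.0673 CPM) and 2 (0.0248 CPM) only. Its neighbour in name, adh5l, went the other way, at 9.46, 8.09 and 7.52 CPM against 21 to 23.3, with replicate 6 between at 10.4 (log2 fold change 1.26 ± 0.26, SE; adjusted p = 0.0419, edgeR). PELI3, a ubiquitin ligase of Toll-like receptor signalling, was at 6.03, 9.43 and 4.70 CPM in batch 1 and between 0 and 0.0495 in batch 2.

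Other genes detected in each batch 1 library had at most 1 or 2 reads in any batch 2 library. The copper importer SLC31A1 was at 6.56, 4.98 and 2.01 CPM in batch 1, and only batch 2 replicate 4 held a read (0.0293 CPM). POLR3F, a subunit of RNA polymerase III, was at 7.08, 3.33 and 1.31 CPM, and only batch 2 replicate 1 held a read (0.0336 CPM). cd8a, the co-receptor of cytotoxic T cells, was at 2.29, 1.69 and 1.34 CPM, with 1 read in batch 2 replicate 1 (0.0336 CPM). CRYAB, a small heat shock protein, was at 1.42, 1.81 and 0.515 CPM in batch 1 and between 0 and 0.0842 in batch 2. The unnamed gene si:ch211-69l10.4, at 3.64, 3.21 and 4.01 CPM in batch 1, had no read in any batch 2 library, which makes it at least 28.7-fold lower there against a floor of 3 counts per library. A rule asked for more than 10 counts in every library of one batch and at most 3 in every library of the other. By it, 21 genes were present in batch 1 alone and 0 in batch 2 alone. After the libraries were thinned to equal depth the counts were 8 and 3, and without replicate 6, unthinned, 24 and 18. The irradiated libraries of the same batches met the rule for 9 of the 21 genes. They met it for 9 of the 24 and for 0 of the 18.

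Some genes that carry the same name parted. SYT6 (ENSDARG00000031463), a synaptotagmin, was at 2.04, 1.87 and 3.1 CPM in batch 1 and at 0 to 0.0842 in batch 2, while the other SYT6 (ENSDARG00000076730) was at 8.96, 9.49 and 13.3 CPM, at 16.5 to 24.0 and, in replicate 6, at 7.40. CBX1 (ENSDARG00000004189), a heterochromatin protein, was at 24.4, 24.8 and 26.7 CPM in batch 1, at 0 to 1.17 in batch 2 replicates 1 to 5 and at 2.56 in replicate 6. The other CBX1 (ENSDARG00000054442) was at 99.6, 107 and 102 CPM, at 96.9 to 102 and at 87.9, with a log2 difference of -0.08 ± 0.10 (SE, all 9). HNRNPD, which binds AU-rich messages, split batch 1 itself: it was at 19.5 and 19.9 CPM in replicates 1 and 3, at 0.381 in replicate 2 and at 0.116 to 0.272 in batch 2.

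**Figure D2:**
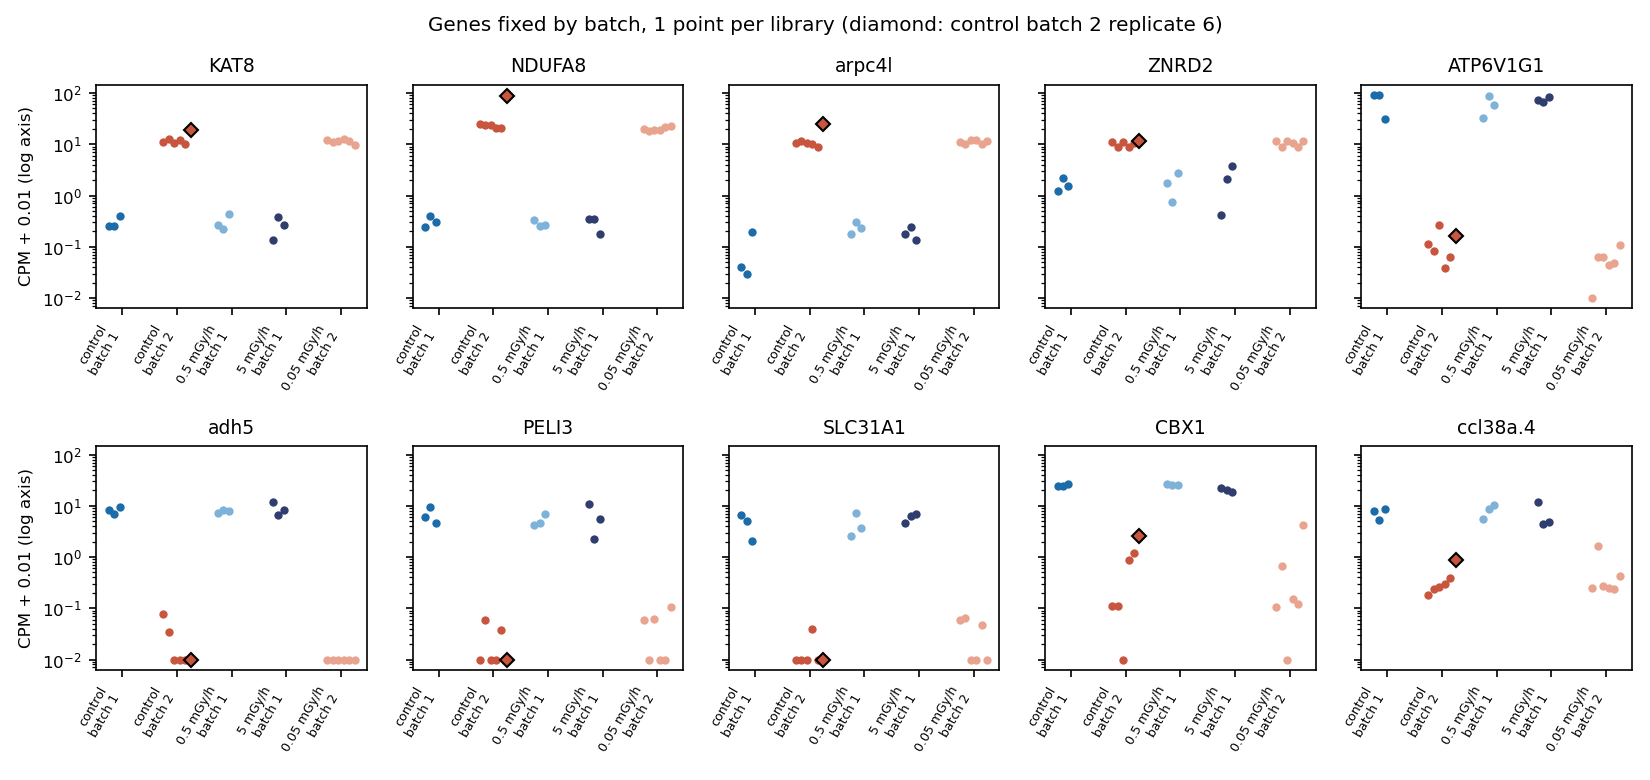
CPM + 0.01 (log axis) of 10 genes in all 21 libraries, arranged by batch and dose rate, with a diamond for batch 2 control replicate 6; CBX1 is ENSDARG00000004189. For each of these genes the irradiated libraries lie on the same side as the controls of their own batch, and the diamond lies on the batch 2 side or between. The 10 genes are a selection. HNRNPD, POLR3F and tmsb1, named by the same rule, are not shown. In the irradiated libraries of batch 1 they ran from 0.171 to 60.6, from 0.0514 to 2.94 and from 0.0214 to 14.5 CPM.

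Most genes higher in batch 2 replicates 1 to 5 were expressed at a lower level in batch 1 and were low in replicate 6 too. Over the 965 genes at least 4-fold higher, the median level was 0.742 to 0.793 CPM in the batch 1 controls and 8.65 to 9.98 in batch 2 replicates 1 to 5, and 0.620 in replicate 6. These genes were chosen by that difference, so the medians describe them and test nothing. In the irradiated libraries, which the choice did not use, the medians were 0.690 to 1.11 CPM at 0.5 mGy/h and 8.69 to 12.3 at 0.05 mGy/h. The 3 libraries at 5 mGy/h held 0.232, 2.89 and 4.64 CPM, so batch 1 itself spanned a wide range. The 115 genes at least 4-fold lower had medians of 1.43 to 1.87 CPM in the batch 1 controls and 0.124 to 0.194 in the batch 2 controls, and there replicate 6, at 0.194, lay at the top of its own batch.

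**Figure D3:**
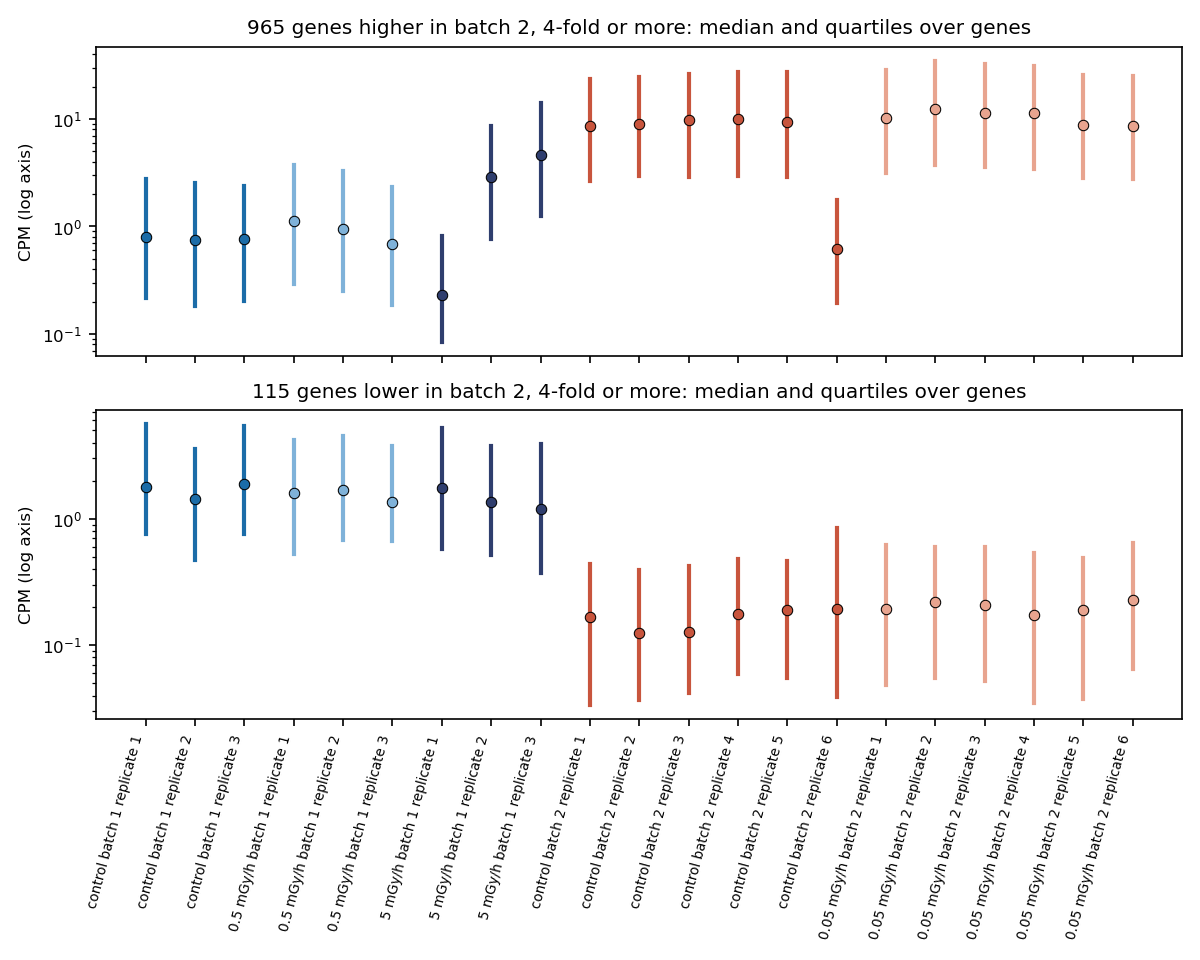
Median and quartiles of log-scaled CPM in each of the 21 libraries for the 965 genes at least 4-fold higher and the 115 at least 4-fold lower in batch 2 control replicates 1 to 5. The higher genes sit low in the batch 1 controls and in batch 2 control replicate 6 and at uneven levels at 5 mGy/h, whereas the lower genes sit low in every batch 2 library.

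Ion channel genes were among those that differed in this way. The channel families were listed after their values had been seen, so their counts are descriptions. Of 102 tested potassium channel genes, 47 were higher and 2 lower in the 8-library comparison (7 and 0 with all 9), beside 13.3% higher and 6.07% lower of all genes with 8 libraries and 1.89% and 0.884% with 9. Of 46 voltage-gated calcium channel subunits, 21 were higher and 0 lower (2 and 0 with all 9), and of 13 sodium channel subunits 8 were higher and 0 lower (0 and 0 with all 9). Their median log2 fold changes were 0.69, 0.62 and 1.40, beside -0.01 over all genes.

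CACNB4, an auxiliary subunit of voltage-gated calcium channels, was at 0.451, 0.361 and 0.515 CPM in batch 1, at 31.9 to 34.9 in batch 2 replicates 1 to 5 (median 33.5) and at 0.542 in replicate 6. Its log2 fold change was 6.24 ± 0.12 without that library (SE; adjusted p = 2.83e-09, edgeR) and 5.97 ± 1.14 with it (adjusted p = 0.036). CACNA1C, the pore of the L-type channel, was at 12.5, 15.1 and 11.9 CPM, at 155 to 178 and at 4.88, so that it was called without replicate 6 (3.66 ± 0.11, adjusted p = 1.87e-08) and not with it (3.39 ± 0.89, adjusted p = 0.0792, edgeR). CACNA1G, the pore of a T-type channel, overlapped between the batches, at 211, 234 and 206 CPM and at 174 to 216, and only replicate 6, at 83.6, stood apart.

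The sodium channel gene SCN8A had 2 copies in the files, and both were higher in batch 2 replicates 1 to 5. One (ENSDARG00000018032) was at 8.17, 8.01 and 7.19 CPM in batch 1, at 61.0 to 74.9 and, in replicate 6, at 2.63. The other (ENSDARG00000005775) was at 259, 304 and 277 CPM, at 452 to 521 and at 43.0. The log2 differences were 3.13 ± 0.09 and 0.82 ± 0.07 in the 8 libraries (SE; adjusted p = 1.67e-08 and 1.93e-05, edgeR), and neither copy was called with all 9. KCNA1, a delayed rectifier of axons, was at 0.420, 0.562 and 0.437 CPM, at 8.82 to 10.7 and at 0.620. For this potassium channel gene, replicate 6 lay beside batch 1 and away from the rest of its own batch.

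The same split was seen in some transmitter receptor genes. GABRB2 (ENSDARG00000100032), a beta subunit of the GABA-A receptor, was at 0.731, 1.04 and 0.577 CPM in batch 1, at 21.4 to 26.1 in batch 2 replicates 1 to 5 and at 0.968 in replicate 6. The other GABRB2 (ENSDARG00000079586) was at 249, 278 and 260 CPM, at 222 to 234 and at 228, with a log2 difference of -0.19 ± 0.06 (SE, 8 libraries), and was thus lower in each batch 2 library by less than 1.5-fold. GABRD, the subunit of receptors outside synapses, was at 217, 209 and 201 CPM in batch 1 and at 145 to 186 in batch 2 replicates 1 to 5, with 29.4 in replicate 6. The 21 tested GABA-A subunits were also listed after the values were seen. Of them, 10 were higher and 2 lower without replicate 6, and 4 and 0 with it. Over all genes 13.3% were higher and 6.07% lower without replicate 6, and 1.89% and 0.884% with it.

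Some glutamatergic genes did the same. SLC17A6 (ENSDARG00000001127), a vesicular glutamate transporter and 1 of 2 genes of that name, was at 140, 149 and 123 CPM in batch 1. It was at 419 to 493 in batch 2 replicates 1 to 5 and at 17.3 in replicate 6. Its log2 fold change was 1.74 ± 0.08 in the 8 libraries (SE, adjusted p = 2.85e-07, edgeR). GRIA1 (ENSDARG00000032714), an AMPA receptor subunit, was at 14.6, 15 and 13.7 CPM, at 36.3 to 48.1 and at 5.23. GRIN2B (ENSDARG00000079348), an NMDA receptor subunit, was at 3.30, 3.53 and 3.12 CPM, at 12.5 to 19.7 and at 1.90. All 3 were called in the 8 libraries and not in the 9. Of 19 tested genes on the glutamatergic list, 4 were higher (21.1%, beside 13.3% of all genes) and 0 lower without replicate 6 (0 and 0 with it), with a median of 0.10. On the GABAergic list of 26 tested genes, 8 were higher (30.8%) and 1 lower (1 and 0 with it), with a median of 0.29. A second GAD1 (ENSDARG00000093411), at 6.94, 5.26 and 5.55 CPM in batch 1 and 15.9 to 21.4 in batch 2 replicates 1 to 5, was at 0.542 in replicate 6. In these bulk samples, fewer cells of a type and less RNA per cell cannot be told apart.

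Some synaptic vesicle, second messenger and adhesion genes held the same arrangement. SYT2 (ENSDARG00000025206) was at 0.249, 0.201 and 0.250 CPM in batch 1, at 22.7 to 27.6 in batch 2 replicates 1 to 5 and at 0.697 in replicate 6. A second SYT2 (ENSDARG00000014169) ran from 0.669 to 0.763 CPM and from 4.88 to 6.33, with 0.194 in replicate 6. SYT7, a slower calcium sensor, was at 3.02, 3.11 and 3.32 CPM, at 34.9 to 44.5 and at 1.43. None of these genes overlapped between batch 1 and batch 2 replicates 1 to 5. pde2a, which breaks down cyclic nucleotides, was at 0.591, 0.321 and 0.328 CPM, at 35.1 to 45.2 and at 1.47. PDE10A, a phosphodiesterase best known from striatal neurons of mammals, was at 1.31, 2.39 and 1.86 CPM, at 33.5 to 50.6 and at 1.16. The adhesion gene PCDH7 was at 18.9, 19.3 and 17.8 CPM, at 70.9 to 82.3 and at 8.79. Phosphodiesterases and protocadherins were also listed after their values were seen. Without replicate 6, 14 of 30 phosphodiesterases were higher and 0 lower, and 18 of 43 protocadherins were higher and 2 lower. With it the numbers were 5 and 0, and 0 and 0. Over all genes 13.3% were higher and 6.07% lower without replicate 6, and 1.89% and 0.884% with it.

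Some of the steepest differences were in genes near the limit of detection in batch 1, such as the muscarinic receptor gene CHRM2, at 0.0778, 0.0201 and 0.0156 CPM in batch 1, at 11.07 to 17.5 in batch 2 replicates 1 to 5 and at 0.465 in replicate 6. The HMG-box factor BBX was at 0.0311, 0.0602 and 0.0156 CPM, at 7.11 to 10.03 and at 0.349. CSRNP3, a nuclear transcription factor, was at 0.140, 0.181 and 0.0936 CPM, at 26.5 to 33.1 and at 0.775, and fam169aa was at 0.0622, 0.0201 and 0.0156 CPM, at 6.31 to 9.01 and at 0.0775. For these 4 genes replicate 6 lay between the batches, and each was called both with and without it. None of the 4 was called when replicate 6 was kept and any other library was left out. For fam169aa the level in replicate 6 stood for 2 reads, against at most 4 reads in a batch 1 library.

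Some genes of stress, monoamine and clock systems were also higher in batch 2 replicates 1 to 5 and low in replicate 6. CRHR1, the receptor of corticotropin-releasing hormone, was at 6.16, 7.73 and 6.66 CPM in batch 1, at 44.3 to 56.1 in batch 2 replicates 1 to 5 and at 2.79 in replicate 6. The mineralocorticoid receptor gene NR3C2 was at 1.87, 1.48 and 1.08 CPM, at 7.57 to 14.2 and at 1.32. SLC18A2, which loads monoamines into vesicles, was at 0.855, 0.562 and 0.499 CPM, at 5.51 to 7.66 and at 0.387. Each was called without replicate 6 and not with it. CLOCK, a core factor of the circadian clock, was at 5.27, 6.18 and 5.65 CPM, at 24.4 to 33.5 and at 1.12, and its relative npas2 was at 10.5, 11.3 and 8.63 CPM, at 20.02 to 50.9 and at 1.08. PER1, a repressor of the same loop, was at 362, 368 and 352 CPM in batch 1, at 181 to 297 in batch 2 replicates 1 to 5 and at 98.4 in replicate 6, and was not called in either comparison. Of 39 tested clock genes 6 were higher (15.4%, beside 13.3% of all genes) and 0 lower in the 8 libraries (0 and 0 with all 9), with a median of 0.18. The time of day of dissection is not given in the sources used here.

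**Figure D4:**
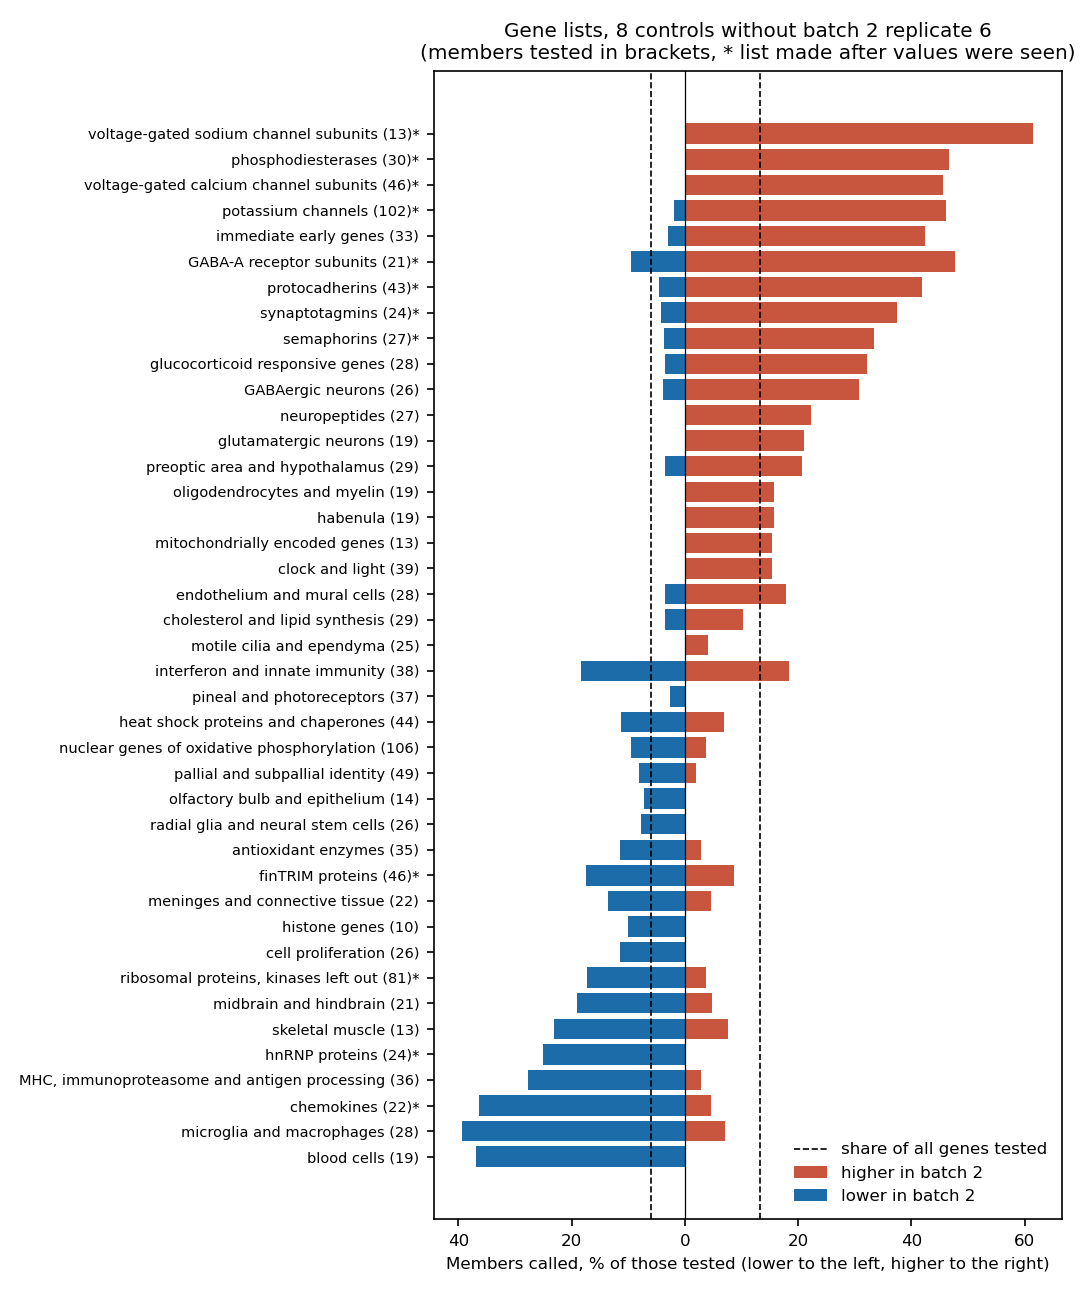
Percent of the tested members of each gene list called higher (right) and lower (left) in batch 2 without replicate 6, for lists with at least 10 tested members, with the share over all genes as dashed lines (13.3% and 6.07%). Lists marked with a star were made after the values were seen, and the bars describe the members with no test of the list. The list labelled glucocorticoid responsive genes also holds receptors and steroid enzymes.

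Immediate early genes, which neurons switch on within minutes of activity or handling, were in some cases higher in batch 2, replicate 6 included. Of 33 tested members, 5 were higher (15.2%, beside 1.89% of all genes) and 0 lower with all 9 libraries, and 14 (42.4%, beside 13.3%) and 1 without replicate 6. The medians were 1.02 and 0.81 on the log2 scale. EGR3 was at 50.3, 40.7 and 52.9 CPM in batch 1 and at 109 to 249 in batch 2 replicates 1 to 5, with 137 in replicate 6 (log2 fold change 1.69 ± 0.27, SE; adjusted p = 0.025, edgeR, all 9). The orphan receptor NR4A1 was at 23.2, 16.9 and 17.8 CPM, at 43.6 to 112 and at 95.1 (1.93 ± 0.33; adjusted p = 0.0275, edgeR). Batch 2 lay wholly above batch 1 for both genes, replicate 6 included.

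FOSB was at 18.8, 13.4 and 16.6 CPM in batch 1, at 45.9 to 85.1 in batch 2 replicates 1 to 5 and at 26.5 in replicate 6, and JUND was at 133, 136 and 151 CPM, at 241 to 386 and at 203. ATF3, a factor of the cell stress response, was at 5.32, 4.41 and 6.99 CPM, at 12.25 to 24.5 and at 21.1. These 3 were called with all 9 as well, at adjusted p = 0.0365, 0.0391 and 0.0267 (edgeR). NPAS4, a factor tied to neuronal depolarisation, was at 143, 95.1 and 267 CPM, at 338 to 618 and at 427, without overlap, and missed the threshold with all 9 (adjusted p = 0.0513, edgeR) but not without replicate 6 (0.00696). GADD45B was at 30.0, 31.9 and 33.1 CPM, at 43.3 to 60.6 and at 229, so that replicate 6 was far above the rest.

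A list of glucocorticoid-responsive and stress-axis genes held members that were higher in batch 2, and some spread widely inside it. Besides genes that respond to glucocorticoids it holds receptors and steroid enzymes, among them CRHR1, NR3C2, HSD11B2 and cyp11c1. Its counts are therefore not a share of responsive genes alone. Of 28 tested members 9 were higher (32.1%, beside 13.3% of all genes) and 1 lower (3.57%, beside 6.07%) without replicate 6. The median was 0.51, and 0 were called with all 9. FKBP5, a chaperone of the glucocorticoid receptor, was at 92.5, 69.9 and 50.1 CPM in batch 1, at 31.7 to 955 in batch 2 replicates 1 to 5 (median 518) and at 654 in replicate 6. One batch 2 library thus lay below all of batch 1 for FKBP5. HSD11B2, which inactivates cortisol, was at 36.0, 24.2 and 24.9 CPM, at 44.4 to 123 and at 160, and CEBPD, a transcription factor of acute responses, was at 2.96, 2.15 and 1.73 CPM, at 5.11 to 12.5 and at 31.6. These last 2 genes did not overlap between the batches.

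Several groups of immune genes held members that were lower in batch 2. Of 28 tested microglia and macrophage genes, 2 were higher and 11 lower without replicate 6 (median -0.52), and 0 and 1 with it. Of 36 genes of the MHC and antigen processing 1 was higher and 10 lower without it (median -0.53), and 0 and 1 with it. Over all genes 13.3% were higher and 6.07% lower without replicate 6, and 1.89% and 0.884% with it. cd74a, the invariant chain of MHC class II, was at 279, 199 and 243 CPM in batch 1, at 77.5 to 124 in batch 2 replicates 1 to 5 and at 367 in replicate 6. The log2 fold change was -1.19 ± 0.14 in the 8 libraries (SE; adjusted p = 0.000141, edgeR), and replicate 6 lay above all of batch 1. LCP1, an actin bundler of white blood cells, was at 21.4, 14.4 and 17.0 CPM, at 5.92 to 9.77 and at 20.8. The 2 microglia and macrophage genes that went the other way were apoeb and csf1rb. apoeb, a lipid carrier that microglia express, was at 140, 98.1 and 139 CPM, at 180 to 266 and at 782. csf1rb, a receptor gene of the same list, was at 3.67, 3.83 and 3.51 CPM, at 5.31 to 7.31 and at 0.349.

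Some immune genes were low in replicate 6 too and were called with all 9 libraries. The galectin lgals9l1 was at 51.3, 44.4 and 45.5 CPM in batch 1, at 13.4 to 23.1 in batch 2 replicates 1 to 5 and at 18.0 in replicate 6 (log2 fold change -1.40 ± 0.19, SE; adjusted p = 0.0172, edgeR). The interferon regulatory factor irf1b was at 21.4, 13.2 and 19.3 CPM, at 4.34 to 8.51 and at 5.00 (-1.71 ± 0.26; adjusted p = 0.0233, edgeR). The class I gene mhc1zaa was at 10.1, 7.08 and 11.14 CPM, at 3.66 to 4.81 and at 1.98, and mxc, an interferon-induced GTPase, was at 6.75, 3.35 and 7.60 CPM, at 0.168 to 1.58 and at 1.32. For each of these genes all of batch 2 lay below all of batch 1. The interferon and innate immunity list, which holds irf1b and mxc, went both ways. Of its 38 tested genes 7 were higher (18.4%, beside 13.3% of all genes) and 7 lower (18.4%, beside 6.07%) without replicate 6. With all 9, 1 was higher and 3 lower (beside 1.89% and 0.884% of all genes). The immunoproteasome gene PSMB8 was at 8.43, 6.86 and 8.6 CPM, at 2.23 to 4.15 and at 6.04, and PSMB9 at 9.94, 6.82 and 10.1, at 3.79 to 5.25 and at 9.88, so replicate 6 lay apart from its batch for both. TAP1, the peptide transporter of the same pathway, was the member that was higher, at 3.61, 3.75 and 3.73 CPM, at 8.71 to 13.2 and at 1.51 in replicate 6.

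Some chemokine and T cell genes were lower in batch 2. ccl38a.4 was at 8.09, 5.28 and 8.55 CPM in batch 1, at 0.168 to 0.382 in batch 2 replicates 1 to 5 and at 0.852 in replicate 6 (log2 fold change -4.34 ± 0.45, SE; adjusted p = 0.00455, edgeR). ccl34b.4 was at 7.70, 5.32 and 7.19 CPM, at 0.223 to 0.379 and at 0.968, and ccl36.1 at 7.65, 4.8 and 4.43 CPM, at 0.616 to 1.38 and at 1.78. No batch 2 library reached the lowest batch 1 library for these 3 genes. Of 23 tested chemokine genes, a list made after the values were seen, 0 were higher and 5 lower with all 9. Of 22 tested without replicate 6, 1 was higher and 8 lower. Over all genes 1.89% were higher and 0.884% lower with all 9, and 13.3% and 6.07% without replicate 6. The T cell kinase lck was at 2.19, 2.43 and 2.51 CPM, at 0.381 to 0.875 and at 0.310, and ZAP70, which acts after lck at the T cell receptor, was at 3.89, 3.39 and 3.74 CPM, at 1.08 to 1.58 and at 2.63. SOCS3, an inhibitor of cytokine signalling, was higher in batch 2, at 7.36, 4.09 and 7.72 CPM against 20.2 to 48.4, with 64.3 in replicate 6. b2ml, the light chain of class I molecules, overlapped between the batches, at 610 to 717 CPM and 561 to 748.

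Some blood cell markers were lower in batch 2 replicates 1 to 5 as well. Of 19 tested members, among them the T cell genes lck and ZAP70, 0 were higher and 7 lower without replicate 6 (36.8%, beside 6.07% of all genes; 0 and 2 with it), and their summed level was 293 to 329 CPM in batch 1 and 199 to 287 in batch 2 replicates 1 to 5, with 567 in replicate 6. The part of blood in the immune differences was not tested.

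**Figure D5:**
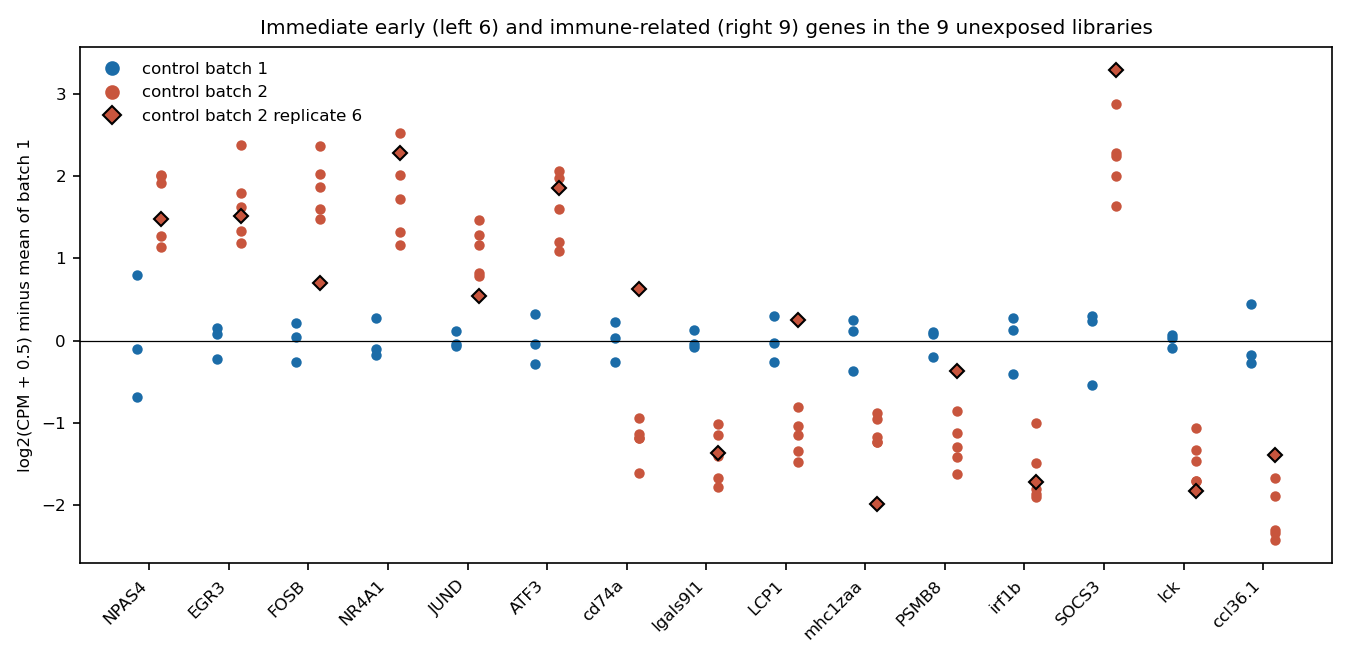
Log2(CPM + 0.5) of 6 immediate early genes and 9 immune-related genes in the 9 controls, relative to the batch 1 mean, with a diamond for batch 2 replicate 6. The immediate early genes lie above the batch 1 mean throughout batch 2, and the immune genes shown, other than SOCS3, lie below it in batch 2 replicates 1 to 5. Immune-related genes that were higher there, among them apoeb, csf1rb and TAP1, are not shown.

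Some genes that mark the border of the dissection varied widely inside each batch. oxt, which encodes oxytocin, was at 308, 16.6 and 61.8 CPM in batch 1, at 40.1 to 129 in batch 2 replicates 1 to 5 and at 1240 in replicate 6. avp, for vasopressin, was at 1.51, 0.0602 and 0.250 CPM, at 0.520 to 1.36 and at 17.7. Batch 1 replicate 1 and batch 2 replicate 6 were the highest of their batches for both. TPH2, an enzyme of serotonin synthesis, was at 24.5, 0.522 and 0.764 CPM, at 0.499 to 9.06 and at 27.0, and CRX, a photoreceptor and pineal factor, was at 15.6, 1.14 and 2.32 CPM, at 0.968 to 3.52 and at 5.31. The retinol carrier gene rbp4l was at 500, 6.68 and 1.65 CPM, at 19.4 to 167 and at 956. The same 2 libraries led, so a single pool decided the batch 1 mean of each. None of these genes was called with 9 or with 8 libraries, and neither were asip2b, an agouti-family gene (30.6 to 179 CPM in batch 1 and 59.6 to 115 in batch 2), and cyp11c1, a cortisol-synthesis enzyme (0.201 to 0.949 CPM and 0.205 to 0.573). The pineal and photoreceptor list summed to 119 to 2788 CPM in batch 1, to 134 to 811 in batch 2 replicates 1 to 5 and to 2336 in replicate 6. The preoptic and hypothalamic list summed to 223 to 666, 367 to 474 and 2226 CPM, and the habenular list to 494 to 561, 552 to 640 and 441 CPM.

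Other cell classes are given by their calls, beside 13.3% higher and 6.07% lower over all genes without replicate 6. In the 8 libraries 0 of 26 radial glia and stem cell genes were higher and 2 lower, 0 and 3 of 26 proliferation genes, 3 and 0 of 19 oligodendrocyte genes, 1 and 0 of 25 motile cilia genes, and 1 and 3 of 22 genes of meninges and connective tissue. With all 9, none of these 5 lists had a call. Replicate 6 held the highest summed level of the 9 controls for each of them, which widened the spread of batch 2. Radial glia and stem cell genes summed to 13172 CPM there, against 7880 to 8383 in batch 1 and 6832 to 7935 in batch 2 replicates 1 to 5. Proliferation genes summed to 338 CPM, against 169 to 199 and 153 to 180. SLC1A2, the glutamate transporter of astroglia and radial glia, was at 1784, 1948 and 1771 CPM in batch 1, at 1226 to 1433 in batch 2 replicates 1 to 5 and at 1434 in replicate 6. It was lower in every batch 2 library, by less than 1.5-fold (edgeR adjusted p = 0.0443, all 9). Of the pallial and subpallial list 1 of 49 was higher and 4 lower. TBR1, a factor of pallial glutamatergic neurons, was at 160, 187 and 179 CPM, at 87.5 to 136 and at 183, whereas its paralogue tbr1a was at 14.3, 17.2 and 12.9 CPM, at 22.3 to 28.1 and at 6.66, and both were called in the 8 libraries in opposite directions. TBR1 fell just short of 1.5-fold when batch 2 replicate 3 was also left out.

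Ribosomal and respiratory genes set replicate 6 apart more than the batches. The ribosomal protein genes, without the kinases that share their names, summed to 16269 to 17935 CPM in batch 1, to 14469 to 15995 in batch 2 replicates 1 to 5 and to 64223 in replicate 6. Nuclear genes of oxidative phosphorylation summed to 8657 to 9491, 8339 to 9157 and 30397 CPM. Of 81 tested ribosomal genes 3 were higher (3.70%, beside 13.3% of all genes) and 14 lower (17.3%, beside 6.07%) without replicate 6. With all 9, 0 were called. RPS15, of the small subunit, was at 155, 148 and 122 CPM, at 17.9 to 44.3 and at 231, and RPL14, of the large subunit, was at 158, 168 and 178 CPM, at 61.4 to 89.0 and at 781. ATP5F1D, of ATP synthase, was at 24.0, 23.9 and 19.3 CPM, at 10.8 to 16.0 and at 213. Leaving out replicate 6 turned the sign of the last 2: their log2 fold changes were 0.22 and 1.05 with all 9 libraries and -1.07 and -0.76 with 8. The mitochondrially encoded MT-ND5 was at 3432, 3541 and 3713 CPM, at 4361 to 4767 and at 2135, below all other libraries in the one in which MT-CO1 was highest.

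The remaining lists are given by their counts in the 8-library comparison, beside 13.3% higher and 6.07% lower of all genes. Nothing is read from shares near these. The finTRIM, semaphorin, synaptotagmin and hnRNP lists were made after the values were seen. Of 38 interferon and innate immunity genes 7 were higher and 7 lower, of 46 finTRIM genes 4 and 8, and of 44 heat shock proteins and chaperones 3 and 5. Of 13 mitochondrially encoded genes 2 were higher and 0 lower, of 106 nuclear genes of oxidative phosphorylation 4 and 10, of 35 antioxidant enzymes 1 and 4, of 29 genes of cholesterol and lipid synthesis 3 and 1, and of 10 histone genes 0 and 1. Border and neighbour regions gave 3 and 0 of 19 habenular genes, 6 and 1 of 29 preoptic and hypothalamic genes, 0 and 1 of 37 pineal genes, 0 and 1 of 14 olfactory genes, 1 and 4 of 21 midbrain and hindbrain genes and 3 and 0 of the 3 tested pituitary genes. Endothelial and mural cell genes gave 5 higher and 1 lower of 28, and skeletal muscle genes 1 and 3 of 13. Of 27 semaphorins 9 were higher and 1 lower, of 24 synaptotagmins 9 and 1, and of 24 hnRNP genes, which process pre-mRNA, 0 and 6. With all 9, each of these lists held at most 3 calls in one direction (3 lower interferon and innate immunity genes). HNRNPM, of the last list, was at 528, 538 and 508 CPM in batch 1, at 275 to 351 in batch 2 replicates 1 to 5 and at 511 in replicate 6.

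The neuropeptide genes NPY, tac1 and gnrh3 were also high in replicate 6. NPY was at 299, 297 and 299 CPM in batch 1, at 332 to 381 in batch 2 replicates 1 to 5 and at 752 in replicate 6. tac1, the substance P precursor, was at 97.5, 123 and 115 CPM, at 133 to 207 and at 534, and gnrh3, a gonadotropin-releasing hormone gene of the fish terminal nerve, was at 8.06, 13.1 and 9.86 CPM, at 15.7 to 43.0 and at 106. All of batch 2 was above all of batch 1 for these 3. Among 27 tested neuropeptide genes 6 were higher (22.2%, beside 13.3% of all genes) and 0 lower (beside 6.07%) without replicate 6. The median was 0.34, and 0 were called with all 9.

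The 12 irradiated libraries, which share no sample with the controls, gave a second measure of the batches, in which dose rate and batch cannot be told apart. edgeR called 3379 of 20270 genes there, 16.7%, 2145 higher in batch 2 (10.6%) and 1234 lower (6.09%), and 1780 where the 3 libraries at 5 mGy/h alone stood for batch 1. Of the 387 genes higher in batch 2 among the 9 controls, 384 were tested in the irradiated libraries, 384 had the same direction and 350 (91.1%) were called. Of the 181 lower genes 172 were tested, 172 had the same direction and 125 (72.7%) were called. The irradiated batches did not overlap for 337 of the 384 higher genes (87.8%, against 10.3% of all genes tested) and for 101 of the 172 lower genes (58.7%, against 6.8%). For the 8-control comparison the called shares were 1624 of 2668 higher genes (60.9%) and 565 of 1211 lower genes (46.7%). The median log2 fold change of the 2731 higher genes was 1.45 in the controls that chose them and 1.22 in the irradiated libraries, and that of the 1243 lower genes was -0.92 and -0.63. Among the genes described above, NPAS4, EGR3, FOSB, NR4A1, JUND and ATF3 were called higher there, and cd74a, lgals9l1, irf1b, mhc1zaa, PSMB8, ccl38a.4 and lck lower. Others called in the 8 controls were not called there. They include SLC17A6, GRIN2B and the second GAD1 (edgeR adjusted p = 0.121, 0.105 and 0.0975). SLC17A6 ran from 5.56 to 373 CPM in the irradiated libraries of batch 1.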

How the data were processed

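The authors aligned paired reads of 50 bases, from stranded mRNA libraries of telencephalon RNA, to GRCz11 with the Ensembl 98 annotation; the labels name STAR and DESeq2 1.22.2. The deposited files hold raw counts per gene, unnormalised, for 32057 gene IDs in 3 columns, 1 unstranded and 2 by strand, and column 4 was used. Rows for unmapped, multimapping, no-feature and ambiguous reads were kept out of library sizes and reported as shares of reads. Here, the 3 batch 1 and 6 batch 2 controls were compared in R 4.3.3 with edgeR 4.0.16 (TMM, filterByExpr, quasi-likelihood test; log2 fold change of batch 2 over batch 1), calling an adjusted p under 0.05 with at least 1.5-fold. The comparison was repeated without batch 2 replicate 6 and in the 12 irradiated libraries. CPM are counts per 1e6 reads of TMM-adjusted library size. The adjustment was made among the 9 controls for the controls and among the 12 irradiated libraries for those. CPM of the controls and of the irradiated libraries were thus not adjusted together.

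A floor of 3 counts corresponds to 0.0491 to 0.126 CPM of unadjusted library size, and it covers counting error only. Transcript lengths of the files' build were not used here, so a planned ranking per kilobase was replaced by a ranking by mean CPM. Of the IDs, 28988 had a name, and 12464 names are in capitals as human symbols are. Where both genes of a name are described, they are told apart by ID. For others 1 of 2 genes of the name is described. Among them are SLC17A6, GRIA1, GRIN2B, GRIN1 (ENSDARG00000027828), CHRM2 (ENSDARG00000098612) and SLC1A2 (ENSDARG00000102453). Reads that fit several places are in the multimapping share and not on any gene, so near-identical copies may be undercounted. Other reads may have been placed on the wrong copy, which makes values of same-name genes uncertain. The members and the gene lists were chosen with earlier results of these data known; 31 lists and the rule for named genes (8 genes per direction by p and 8 by fold change, genes on in one batch alone, up to 6 called and the 2 highest members of each list, the 20 genes with most reads, genes with the smallest spread, and genes named by the study) were used, and 12 further lists were made after the values of these libraries were seen. Partner genes of the same name, and others outside that rule, were chosen after their values were seen. On simulated data with 200 changed genes, the 9-control test recovered 7.07% of changes of 1 and 71% of changes of 2 on the log2 scale (20245 genes), and the 8-control test 74% and 93% (20273 genes). The simulated libraries were drawn independently, and none deviated over many genes together as batch 2 replicate 6 did. The recovered shares therefore do not give the power in the real libraries. Alternatives were DESeq2 1.42.0, other normalisations, filters, thresholds, thinning, unstranded counts, a replicate block and leaving out each library. Some genes that the rule names are not reported here.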

Additional observations from a re-analysis of the deposited data

Results flagged for a closer look

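In 8 library measures and 108 genes, the highest and the lowest of the 6 batch 2 controls were compared with the others by Dixon's ratio, whose 95% critical value chance exceeds in about 1 in 20 groups. 64 of them exceeded it, 58 through batch 2 replicate 6, at the high end 29 times and at the low end 29 times. Many of these genes were chosen by calls made without replicate 6 or after their values were seen. All share the same 6 libraries and are not independent. The counts are therefore descriptions, and the rate of 1 in 20 is no measure for them.

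Replicate 6 was farthest above the other 5 in unmapped reads (8.66%) and in the share of the 10 genes with most reads (12.21%). Genes with reads in batch 2 and almost none in batch 1 were high there: KAT8 at 18.9 CPM, NDUFA8 at 85.9, arpc4l at 24.9 and tmsb1 at 45.8. Immune and stress genes at the high end were ccl38a.4 at 0.852 CPM, ccl34b.4 at 0.968, cd74a at 367, LCP1 at 20.8, apoeb at 782, PSMB9 at 9.88, ZAP70 at 2.63, GADD45B at 229 and CEBPD at 31.6. Peptide and border-region genes were oxt at 1240 CPM, avp at 17.7, TPH2 at 27.0, rbp4l at 956, gnrh3 at 106, tac1 at 534 and NPY at 752. The last group was ATP5F1D at 213 CPM (10.8 to 16.0 in the other 5), RPL14 at 781, RPS15 at 231, MT-CO1 at 43744, the ependymin gene epd at 21341 (3885 to 5720), the actin gene actb2 at 7365 and HNRNPM at 511.

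Replicate 6 was farthest below the other 5 in reads outside genes (17.3%) and ambiguous reads (0.751%). Channel and receptor genes at the low end were CACNB4 at 0.542 CPM, CACNA1C at 4.88, CACNA1G at 83.6, both SCN8A genes at 2.63 and 43.0, KCNA1 at 0.620, GABRB2 at 0.968, GABRD at 29.4, GRIA1 at 5.23 and CRHR1 at 2.79. Synaptic and signalling genes were both SYT2 genes at 0.697 and 0.194 CPM, SYT7 at 1.43, pde2a at 1.47, PDE10A at 1.16, PCDH7 at 8.79, SLC17A6 at 17.3, SLC18A2 at 0.387 and the second GAD1 at 0.542. The others were adh5l at 10.4 CPM, the second CBX1 at 87.9, BBX at 0.349, CSRNP3 at 0.775, fam169aa at 0.0775, CLOCK at 1.12, tbr1a at 6.66 and MT-ND5 at 2135.

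The remaining 6 came from other libraries. Replicate 1 held the high value of adh5 (0.0673 CPM), POLR3F (0.0336 CPM) and cd8a (0.0336 CPM), replicate 2 that of multimapping reads (14.5%) and replicate 4 that of SLC31A1 (0.0293 CPM). Of these, the values of POLR3F, cd8a and SLC31A1 stand for 1 read each, against 0 in the other 5 libraries. Replicate 5 held the low value of FYN, 203 CPM against 210 to 213.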

How the results depend on the processing

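With all 9 controls the 568 calls (387 higher, 181 lower) moved most. DESeq2 gave 2016 (1396 and 620), all 21 libraries in one model 1692 (1140 and 552), at least 10 counts in every library 196 (133 and 63), and a test against 1.5-fold itself 174 (122 and 52). The replicate numbers did not pair the samples (correlations of their deviations -0.01, 0.01 and -0.10 for numbers 1, 2 and 3), and a replicate block, in which batch 2 replicates 4 to 6 share no number with batch 1, gave 3399 calls (2284 and 1115). Leaving out 1 library gave 22 to 3974 calls (6 to 2731 higher, 16 to 1243 lower), the upper end being the 8 controls without batch 2 replicate 6. Other normalisation, no filter, robust dispersion, thinning and unstranded counts gave 471 to 635. Without replicate 6 the 3974 calls became 6524 with no fold threshold (2854 lower) and 3437 to 4335 under DESeq2, other normalisation, filters, thinning, robust dispersion and unstranded counts; a further library left out gave 3530 to 4224, and 2840 of the 3974 genes (71.5%) were called in each of those 8 fits. In the irradiated libraries the 3379 calls became 1780 (896 higher) with 5 mGy/h alone as batch 1. The 14388 shared genes became 7638 at 10 CPM, the 3545 bounded genes 8615 without replicate 6, and the genes on in batch 1 or batch 2 alone, 21 and 0, became 8 and 3 at equal depth, an alternative chosen after seeing the data. Of distinct list members 19 were called with all 9, 81 with DESeq2, 190 without replicate 6 and 2 without batch 1 replicate 1. No gene named here and called with all 9 changed direction under these alternatives, whereas RPL14 and ATP5F1D, not called with all 9 (log2 0.22 and 1.05), were called lower without replicate 6 (-1.07 and -0.76). A gene not called with all 9 may still differ.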

Other observations

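Zebrafish often carry more than one copy of a gene, and in these files such copies can hold the same name. Among 1374 pairs of tested genes with the same name, both were called in the same direction in 91, in opposite directions in 15, and a single member was called in 396, in the 8-control comparison. With all 9 controls the numbers were 2, 0 and 89 of 1372 pairs. SYT6, CBX1 and GABRB2 are examples in which one gene was low in one batch and the other was detected in every library. Reads that fit both copies of a pair may have been lost as multimapping reads, or placed on the wrong copy, and this was not tested. The long noncoding RNA malat1 was among the genes with the most reads, at 6396, 6216 and 6053 CPM in batch 1, at 5807 to 8084 in batch 2 replicates 1 to 5 and at 5615 in replicate 6.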
